A study of Mus musculus with 8 samples.

Results

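Germ cells in the seminiferous tubule stay in contact with Sertoli cells, the somatic cells that carry and nourish them, through a set of membrane glycoproteins, and 10 genes of this kind are described here. They are Bsg, Emb, Cadm1, Nectin2, Nectin3, Jam2, Jam3, Cxadr, Cdh2 and Nrcam. They were taken by gene name from the deposited table of 55357 genes, and all 10 were among the 20187 genes that passed the filter on low values, a TPM (a length-scaled share of the transcripts of a library) of at least 1 in at least 1 library. RNA-seq compared germ cells of 15-day male mice of 2 genotypes on the C57BL/6 background. The 4 controls were Mgat2[F/F], with both Mgat2 alleles floxed and no Cre. The 4 conditional knockouts (cKO) were Mgat2[F/F]:Stra8-iCre, in which the Stra8 promoter drives Cre recombinase in spermatogonia, so the somatic cells of the testis are not targeted. Each mouse gave 1 library, and the cells were released from the tubules with collagenase and trypsin, filtered and not sorted.

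MGAT2 is the Golgi enzyme that adds the second N-acetylglucosamine branch to an N-glycan, which turns a hybrid N-glycan into a complex one. Each of the 10 genes encodes a protein of the cell surface with N-glycans, and all but N-cadherin (Cdh2) belong to the immunoglobulin superfamily. Nectins and JAMs bind partners on the opposite cell and recruit scaffold proteins to junctions, N-cadherin holds its catenins at the membrane, and basigin and embigin escort lactate transporters to the surface. In the testis, Sertoli cells feed lactate to germ cells, and male mice lacking basigin, CADM1 or JAM-C do not complete spermatogenesis. The measurements below are of RNA, so they say nothing of the glycans on these proteins.

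The coding sequences of these genes encode the protein motif in which an asparagine can carry an N-glycan. In codons it is one for asparagine (AAT or AAC), then any codon except one for proline, then a codon for serine or threonine. This motif was counted in the canonical transcript of GENCODE mouse release 39 (GRCm39), read on the coding strand, with overlapping matches counted and the cytoplasmic part included. Over 21483 coding genes, 78.6% held at least 1 match and the median was 0.444 matches per 100 codons. All 10 adhesion genes were above that median. Emb was the densest, with 9 matches in 330 codons, or 2.73 per 100, a density that 0.251% of coding genes reached. Cadm1 held 7 in 445 codons (1.57 per 100), Nrcam 18 in 1193 (1.51 per 100) and Bsg 5 in 389 (1.29 per 100). Nectin3 held 6, Jam2 3, Cdh2 10 and Cxadr 4, at 1.176, 1.145, 1.104 and 1.096 per 100 codons. Jam3 with 2 and Nectin2 with 3 were the sparsest, at 0.645 and 0.566 per 100. A match is a description of the letters and does not show that a glycan is attached there. The deposited values are per gene, and Bsg, for example, has 18 coding transcripts. Which transcript these cells held was not tested, so the canonical count, density and match positions may not be those of the RNA measured.

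The windows below show such matches in 3 genes: Bsg, the most abundant, Emb, the densest, and Nrcam, which had the smallest p-value of the 10 in the genotype comparison. For each gene the first matches within 1 exon are given, 5′ to 3′, and capitals mark the 3 codons of the match. The fifth match of Bsg was too near an end of the coding sequence for a window. All lie in coding exons on the plus strand of GRCm39.
Bsg codon 64, exon 2, chr10:79544644-79544670: aatgctccaAACGACAGCtgctcccag
Bsg codon 160, exon 3, chr10:79545558-79545584: tgctctttgAACAGCAGTggcgttgac
Bsg codon 270, exon 6, chr10:79546472-79546498: gcaatcaccAATAGCACTgaagccaat
Bsg codon 306, exon 6, chr10:79546580-79546606: tacgtgtgtAATGCCACCaacgcccag
Emb codon 55, exon 2, chr13:117369307-117369333: aaatactcaAACCTTTCCttaaagagc
Emb codon 101, exon 3, chr13:117385900-117385926: aacttgatgAATGTGACTtggaagaaa
Emb codon 118, exon 3, chr13:117385951-117385977: ggtgacttcAATACAACTaaaatgggc
Emb codon 191, exon 5, chr13:117401014-117401040: cttcctttaAATTGGACTtggtacatg
Nrcam codon 77, exon 6, chr12:44586231-44586257: tggactcgtAATGGAACTcactttgac
Nrcam codon 217, exon 8, chr12:44591615-44591641: gccagatttAATCACACTcaaaccatc
Nrcam codon 239, exon 9, chr12:44592164-44592190: gatgaattgAATGACACTatagctgct

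The libraries held 12584726 to 15907505 expected counts in controls and 14069373 to 15572196 in cKO, so that 3 counts, the floor taken here, were worth 0.189 to 0.238 CPM, the count scaled by library size. The lowest count of an adhesion gene was 231, for Cxadr in cKO replicate 1. Mgat2 itself was at 69.8, 31.8, 64.3 and 59.8 CPM in controls 1 to 4 and at 35.3, 20.1, 37.6 and 16.03 CPM in cKO 1 to 4. Its mean was lower in cKO but the genotypes overlapped at control 2, and the difference did not pass the threshold (log2 fold change -1.05, SE 0.36, adjusted p = 0.47, edgeR), while DESeq2 called it (adjusted p = 0.025). None of the 12 Sertoli markers examined was at 0. Their summed level was 7039 to 8833 TPM in controls and 7446 to 8833 TPM in cKO. That was above the sum of 5 germ cell markers, 1246 to 1577 and 1216 to 1302 TPM. These sums cover unequal numbers of genes, and Clu weighed most in the Sertoli sum, at a mean of 4162 TPM in controls and 4348 TPM in cKO. Clu, Aard, Inha and Vim each exceeded every one of the 5 germ cell markers in mean TPM, while the other Sertoli markers were each below Dazl and Sycp3. Sycp3, at a mean of 458 TPM in controls and 425 TPM in cKO, served the authors as a spermatocyte marker. The germ cell sum therefore also depends on the stage of the germ cells. Sertoli transcripts were present in every library labelled as germ cells, some at high levels. The adhesion genes therefore cannot be assigned to one side of the contact. The 8 spermatocyte markers summed to 873 to 1302 TPM in controls and 718 to 789 TPM in cKO, with no overlap. Piwil1 and Hspa2, singled out after their values were seen, carried that separation, and the other 6 markers summed to 495 to 805 TPM in controls and 498 to 601 TPM in cKO, which overlap. The 8 spermatogonial markers summed to 853 to 1007 TPM in controls and 973 to 1181 TPM in cKO. Leydig markers summed to 35.9 to 89.7 TPM in controls and 48.6 to 73.8 TPM in cKO, peritubular myoid markers to 386 to 517 and 350 to 660 TPM, endothelial markers to 5.43 to 10.9 and 4.81 to 10.5 TPM, and macrophage markers to 5.75 to 10.6 and 9.39 to 15.8 TPM. In bulk RNA, fewer cells of a type and less RNA per cell cannot be told apart.

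The 10 genes covered a wide range of abundance. In TPM, which allows for transcript length, Bsg was highest at 607 ± 19.9 in controls and 565 ± 15.4 in cKO (mean ± SD, n = 4 each), and Cxadr was lowest at 9.96 ± 1.88 and 8.23 ± 1.26. Bsg stood clear of all the others, with 553 TPM in its lowest library against 175 TPM in the highest library of the next gene, Cadm1. Cadm1, Nectin2 and Jam3 followed with means over the 8 libraries of 160, 149 and 119 TPM, and their ranges overlapped from each to the next. A second gap came after Jam3, whose lowest library (98.1 TPM) was above the highest of Jam2 (61.1 TPM). Below it the order was Jam2 (55.8 TPM), Cdh2 (50.3 TPM), Emb (41.0 TPM), Nectin3 (28.4 TPM), Nrcam (14.0 TPM) and Cxadr (9.09 TPM), and every neighbour in that order overlapped the next.

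**Figure D1:**
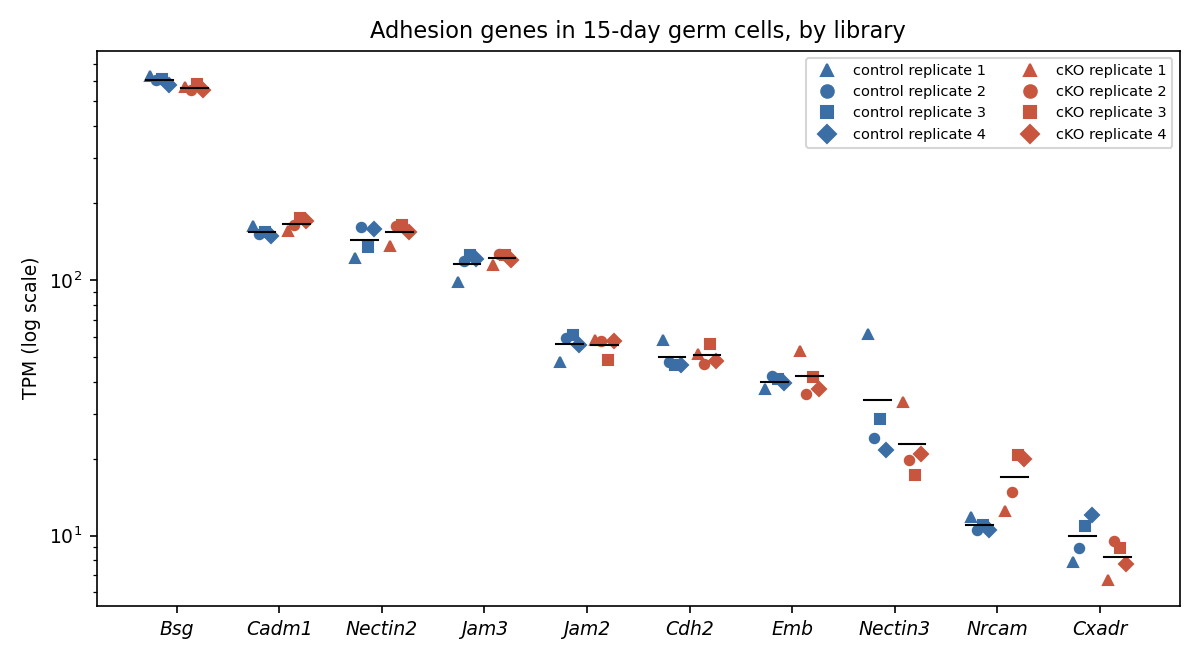
TPM of the 10 adhesion genes on a log axis, with 1 symbol per library, blue for control and red for cKO, shaped by replicate number, and a black line at each mean. Bsg lies at 553 TPM or higher in every library, the Nrcam points of cKO lie above those of control, and Nectin3 is highest in replicate 1 of each genotype.

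The genotype comparison was made by edgeR's quasi-likelihood test across all 20187 genes with Benjamini-Hochberg adjustment. None of the 10 adhesion genes passed an adjusted p of 0.05, where 8 of all genes did (0.0396%). By unadjusted p under 0.05, 1 of 10 passed, Nrcam, against 8.9% of all genes. Of all genes, 2.62% passed that level with a higher and 6.28% with a lower value in cKO. DESeq2 called 1 of 10, again Nrcam, against 1.5% of all genes, and 2 of 10 had an unadjusted DESeq2 p under 0.05, against 9.63% of all genes. In 2 of the 10, Cadm1 and Nrcam, every cKO library was above every control library in CPM, as in 2.47% of all genes. None had every cKO library below every control, as 3.03% of all genes had. The log2 fold changes, cKO over control, were above 0 for 7 and below 0 for 3, with a median of 0.07 beside 0.01 over all genes tested. In the marker lists the median was 0.09 (Sertoli), 0.18 (spermatogonial), -0.09 (germ cell) and -0.43 (spermatocyte). It was -0.04 (Leydig), 0.17 (peritubular myoid), -0.17 (endothelial) and 0.23 (macrophage) in the others.

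**Figure D2:**
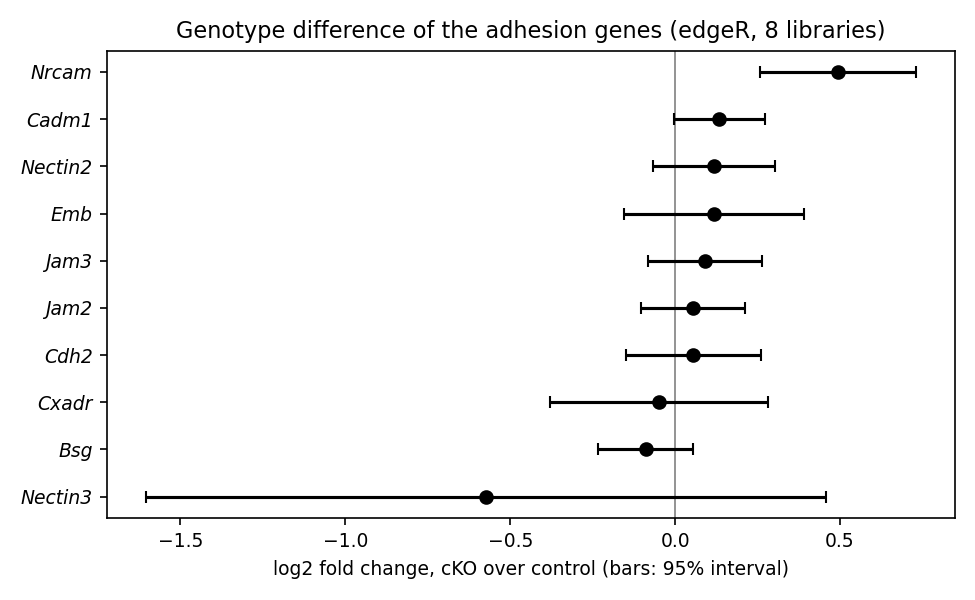
Log2 fold change of each adhesion gene, cKO over control, with the 95% interval of the fit over 8 libraries. The interval of Nrcam, 0.26 to 0.73, excludes 0, that of Nectin3 is the widest, and the other 8 points lie between -0.09 and 0.13.

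Bsg (ENSMUSG00000023175), at chr10:79540143-79547821, encodes basigin, the chaperone of the monocarboxylate transporters. It was at 347 to 394 CPM in controls and 334 to 362 CPM in cKO, and the genotypes overlapped (fold 0.94, 95% interval 0.851 to 1.04, adjusted p = 0.71). The lower bound of its log2 fold change was -0.23. Emb (ENSMUSG00000021728), at chr13:117345072-117414817, encodes embigin, a relative of basigin that also escorts monocarboxylate transporters. Its controls were at 63.8, 67.5, 66.2 and 60.8 CPM and its cKO libraries at 91.1, 59.0, 68.8 and 61.3 CPM. The library of cKO 1 stood above the other 7. The fitted difference was 0.12 (SE 0.12, adjusted p = 0.80), and without cKO 1 it was -0.04.

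Cadm1 (ENSMUSG00000032076), at chr9:47441471-47773576, encodes the adhesion molecule by which germ cells bind one another and Sertoli cells. It was at 273.6, 266.6, 269.7 and 260.0 CPM in controls 1 to 4 and at 281.9, 286.7, 316.8 and 288.5 CPM in cKO 1 to 4. All 4 cKO libraries were above all 4 controls, but by little, and the difference did not pass the test (fold 1.097, 95% interval 0.997 to 1.21, adjusted p = 0.57 by edgeR). In TPM the genotypes overlapped, with control 1 at 162 TPM and cKO 1 at 155 TPM.

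Nectin2 and Nectin3 encode the 2 nectins that face each other across the junction between Sertoli cell and spermatid, nectin-2 on the Sertoli side and nectin-3 on the germ cell side. The mice were 15 days old, and the authors describe few round spermatids even at a later age. The values below are therefore not readings of that junction. Nectin2 (ENSMUSG00000062300), at chr7:19450569-19484408, was at 176 to 221 CPM in controls and 201 to 233 CPM in cKO, with overlap (fold 1.08, 95% interval 0.955 to 1.23, adjusted p = 0.70). Nectin3 (ENSMUSG00000022656), at chr16:46208069-46318888, was at 115.9, 40.7, 52.0 and 36.9 CPM in controls 1 to 4 and at 61.4, 34.8, 32.7 and 36.0 CPM in cKO 1 to 4. It was the most variable of the 10, and replicate 1 was the highest library within each genotype. The fitted log2 fold change of -0.57 had an SE of 0.43 and did not pass the test (adjusted p = 0.73). That value rested on control 1, since without this library it was -0.07 (adjusted p = 0.98). With replicate 1 of both genotypes left out, 3 against 3 libraries gave -0.33 (SE 0.11, adjusted p = 0.091), still short of the threshold.

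Across libraries Nectin3 ran against Nectin2. Pearson's r of their log2 CPM was -0.91 over the 8 libraries, the most negative of the 45 pairs among the 10 genes on that measure. It was -0.89 within genotype, where Emb and Cxadr were at -0.90, and -0.89 over the 6 libraries without replicate 1, where Emb and Jam2 were at -0.97. These points share library and depth, so r is a description only. The summed Sertoli markers, in which Clu and Aard weigh most, rose with Nectin2 and ran against Nectin3. On log2 values over the 8 libraries r was -0.96 for Nectin3 and 0.85 for Nectin2. For the other members r with that sum was -0.79 (Bsg), 0.76 (Cxadr), 0.72 (Jam2), 0.58 (Jam3), -0.54 (Cdh2), -0.50 (Emb), 0.49 (Nrcam) and 0.27 (Cadm1). The Sertoli sums were lowest in control 1 (7039 TPM), then cKO 1 (7446 TPM), control 3 (7902 TPM) and control 2 (8288 TPM), and these 4 libraries had the 4 highest Nectin3 levels in the same order, while the other 4 libraries held 8720 to 8833 TPM of Sertoli markers and 32.7 to 36.9 CPM of Nectin3. Nectin2 was lowest in control 1, control 3 and cKO 1. The part of cell composition in these patterns was not tested. Leydig and peritubular myoid sums were both lower in control 1 than in controls 2 to 4, at 35.9 and 386 TPM, whereas in cKO 1 the Leydig sum was the highest of the cKO libraries (73.8 TPM) and the myoid sum the lowest (350 TPM). The spermatocyte sum was the highest of its genotype in both replicate 1 libraries, 1302 TPM in control and 789 TPM in cKO, but without Piwil1 and Hspa2 it was the lowest in both, 495 and 498 TPM. In control 1, Sycp1, Sycp2, Hormad1, Spo11 and Meiob were each at their lowest control level. Ccna1 went the other way, at 6.79 CPM in control 1 against 0.937 to 1.04 CPM in controls 2 to 4. In cKO 1, Sycp1, Sycp2, Spo11 and Meiob were at their lowest cKO level in CPM, and Hormad1 and Ccna1 at their highest.

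**Figure D3:**
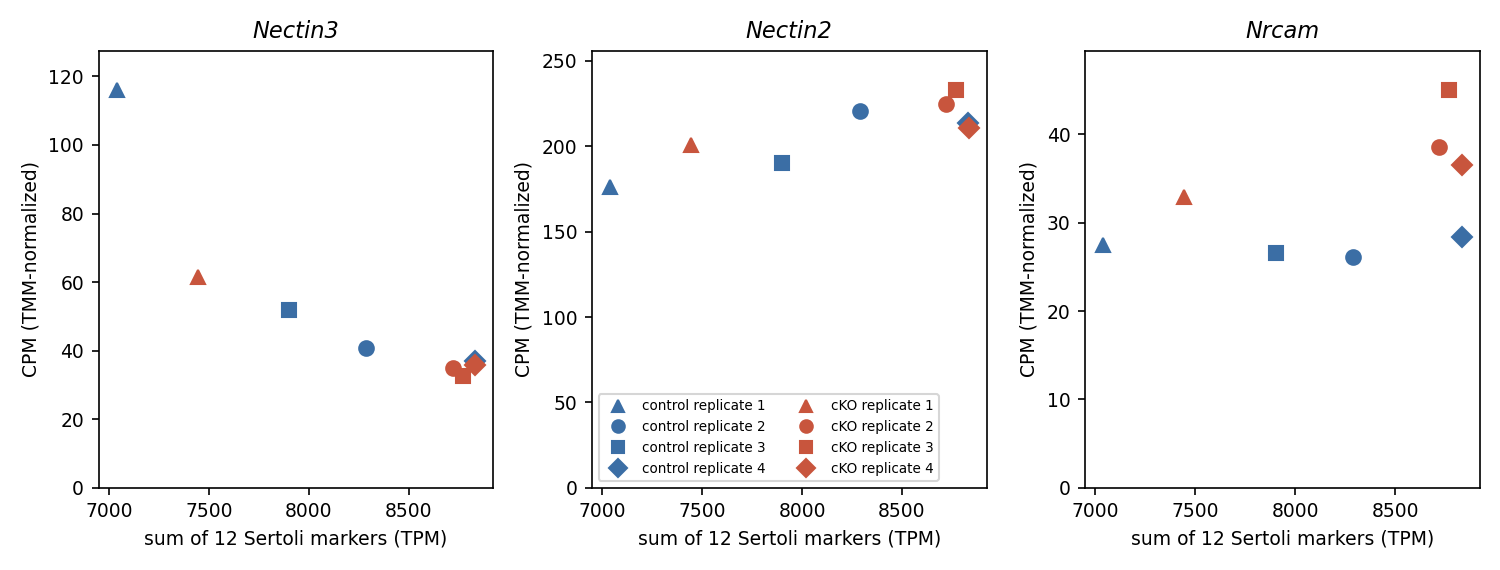
CPM of Nectin3, Nectin2 and Nrcam (each y axis from 0) against the summed TPM of 12 Sertoli markers, 1 symbol per library, blue for control and red for cKO, shaped by replicate number. Nectin3 is at 115.9 CPM where the sum is lowest, 7039 TPM, and at 32.7 to 36.9 CPM in the 4 libraries with the highest sums, whereas Nrcam separates by genotype, with controls at 26.1 to 28.3 CPM and cKO at 32.9 CPM where their Sertoli sum is lowest and 36.5 to 45.0 CPM in the other 3.

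Jam2, Jam3 and Cxadr encode JAM-B, JAM-C and the coxsackievirus and adenovirus receptor (CAR), relatives that bind one another, JAM-B on Sertoli cells and JAM-C on germ cells. Jam2 (ENSMUSG00000053062), at chr16:84570764-84623269, was at 117 to 134 CPM in controls and 123 to 142 CPM in cKO, and Jam3 (ENSMUSG00000031990), at chr9:27005652-27066915, at 103 to 131 and 121 to 133 CPM. Both overlapped between genotypes, with folds of 1.04 (95% interval 0.932 to 1.16, adjusted p = 0.86) and 1.07 (95% interval 0.945 to 1.20, adjusted p = 0.75). Cxadr (ENSMUSG00000022865), at chr16:78098377-78159153, was at 19.5 to 25.0 CPM in controls and 15.3 to 23.9 CPM in cKO, and did not pass the test either (fold 0.967, 95% interval 0.769 to 1.21, adjusted p = 0.96). Its TPM values gave a lower ratio of means, 0.826. The ratio of count to TPM, which reflects the transcript length that RSEM estimated for the gene, differed between libraries for Cxadr from 0.762 to 1.33 times its mean, with cKO 4 highest, and that spread was wider than in 91.3% of 11656 genes.

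Cdh2 (ENSMUSG00000024304), at chr18:16700793-16942381, encodes N-cadherin, the main classical cadherin of contacts between Sertoli and germ cells. It was at 156.1, 123.5, 121.8 and 120.4 CPM in controls and at 139.1, 125.5, 147.8 and 129.6 CPM in cKO. Control 1 was the highest library of all 8, and the other 3 controls lay below every cKO library. The genotypes therefore overlapped through control 1 alone, and the difference was 0.06 (SE 0.094, adjusted p = 0.90) with it and 0.15 (adjusted p = 0.72) without it. Replicates 2 to 4 gave 0.14 (SE 0.067, adjusted p = 0.34).

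Nrcam (ENSMUSG00000020598), at chr12:44375287-44651976, encodes a cell adhesion molecule of the L1 family, known best from neurons, where it binds ankyrin inside the cell. It was at 27.5, 26.1, 26.6 and 28.3 CPM in controls 1 to 4 and at 32.9, 38.6, 45.0 and 36.5 CPM in cKO 1 to 4. The controls lay close together and every cKO library was higher. In edgeR the fold was 1.41 (log2 0.49, SE 0.11, 95% interval of the fold 1.196 to 1.66) with an adjusted p of 0.23, which does not pass, and in DESeq2 the log2 fold change was 0.49 with an adjusted p of 0.0086, which does. With each library left out in turn the log2 value stayed between 0.41 and 0.56 and the adjusted p by edgeR between 0.075 and 0.74. In replicates 2 to 4 alone the difference was 0.57 (SE 0.10) and edgeR called it (adjusted p = 0.00026), where it called 4.24% of all genes. Nrcam had already been singled out in earlier results of these data after its values were seen, so none of these values is independent support.

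In TPM, Nrcam was at 10.5 to 11.8 in controls and at 12.5, 14.9, 20.6 and 20.0 in cKO 1 to 4, and the ratio of means was 1.55, larger than the 1.41 from counts. The length implied by count and TPM was 0.898 and 0.778 times its mean in cKO 3 and 4 and 0.948 to 1.16 times in the controls, a spread wider than in 84.2% of the 11656 genes. The libraries with the 2 highest TPM values were thus those with the shortest implied length. Transcripts are not separated in the deposited table, so which of the gene's isoforms was present was not tested. Nrcam lies on the chromosome of Mgat2, 24.6 Mb from it. Both genotypes carry floxed Mgat2 alleles, and any part of this position in the Nrcam difference was not tested.

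Cadm1 and Nrcam, the 2 genes whose genotypes did not overlap in CPM, had the most positive r of the 45 pairs over the 8 libraries, 0.92. Their r was 0.78 within genotype, where Bsg and Cdh2 were higher at 0.83, and 0.93 without replicate 1, where Cadm1 and Cdh2 were higher at 0.95. The gene whose log2 CPM was most like either of them, of 15284 genes searched with a mean of at least 1 CPM, was the same, Vbp1, with r = 0.95 for Cadm1 and r = 0.97 for Nrcam over the 8 libraries. For the other members the most similar gene was Gm36864 for Bsg (r = 0.98), Lrp8os3 for Emb (r = 0.96), Fyn for Nectin2 (r = 0.99), Wdr48 for Nectin3 (r = 0.997), Vgll3 for Jam2 (r = 0.97), 8430406P12Rik for Jam3 (r = 0.98), Notch2 for Cxadr (r = 0.99) and Tm9sf3 for Cdh2 (r = 0.99). A largest r among 15284 genes over 8 points is high for any gene, so these names describe the libraries and no more.

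Partner genes of the 10 proteins, 48 in all, were listed by role, and 42 of them were tested. None was called by edgeR and none by DESeq2. The unadjusted p of DESeq2 was under 0.05 for 3 of 42, beside 9.63% of all genes, and edgeR's unadjusted p was under 0.05 for 2 of 42, beside 8.9% of all genes. Their log2 fold changes were above 0 for 22 and below 0 for 20, with a median of 0.02. In CPM every cKO library was above every control for 2 of 42, beside 2.47% of all genes. None had every cKO library below every control, beside 3.03% of all genes.

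**Figure D4:**
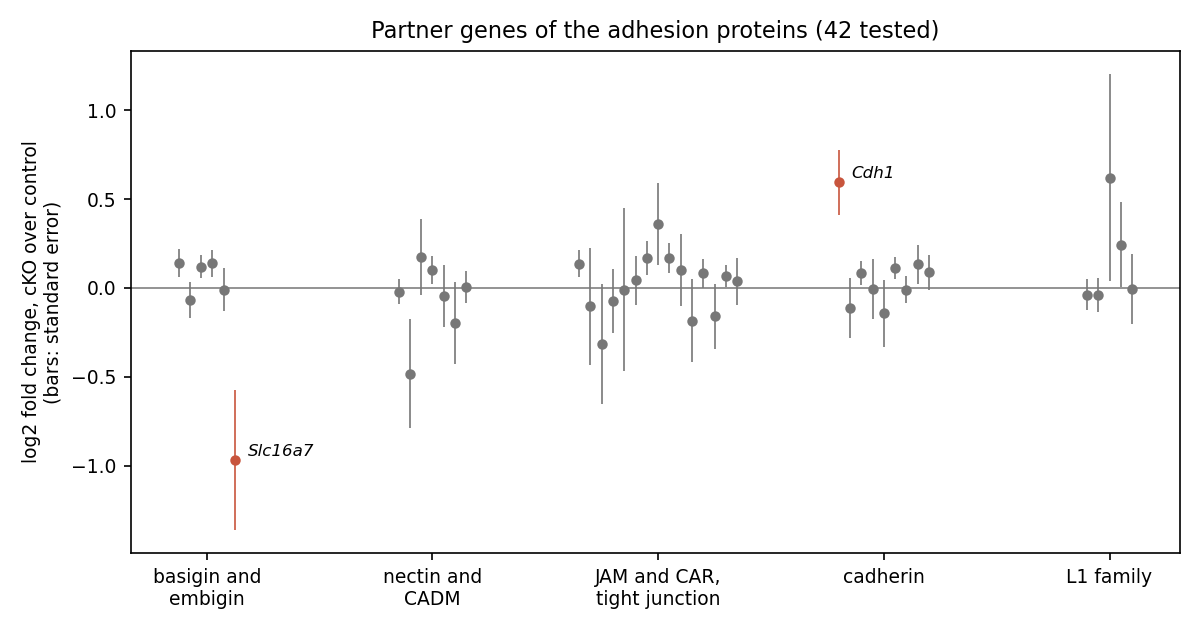
Log2 fold change with its standard error for the 42 tested partner genes, in 5 groups by role. Most points lie near 0, and the 2 genes with an unadjusted p under 0.05, Slc16a7 below 0 and Cdh1 above 0, are in red and named.

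Among the 6 basigin and embigin partners, the transporters Slc16a1 and Slc16a3, which carry lactate, had log2 fold changes of 0.14 and -0.01, and the cyclophilin gene Ppia, the most abundant partner at 1053 and 995 TPM, had -0.07 (adjusted p = 0.88), with some uncertainty because Ppia has many processed copies that can share its reads. The transporter Slc16a7, which carries pyruvate and lactate with high affinity, was at 17.1, 5.83, 9.16 and 4.61 CPM in controls and at 6.70, 4.01, 3.91 and 4.11 CPM in cKO. Control 1 was far above the rest, cKO 1 was the highest cKO library, and the genotypes overlapped. The difference of -0.97 (SE 0.39) was under 0.05 by unadjusted p only (adjusted p = 0.52). In CPM the replicate 1 libraries were thus highest in their genotype for Slc16a7 as for Nectin3, but in TPM the highest control for Slc16a7 was control 2, at 15.5 against 9.28 TPM in control 1.

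The nectin and CADM partners numbered 9, of which 7 were tested and none had p under 0.05. They ranged from -0.48 for Cadm3 to 0.17 for Cadm4, and the most abundant, the scaffold gene Epb41l3, was at 0.10 (adjusted p = 0.73). The afadin gene Afdn, whose protein links nectins to actin, was at -0.02 (SE 0.069). In the JAM and CAR group all 15 were tested and none had p under 0.05. Cldn11, which encodes the main claudin of the Sertoli cell barrier, was the most abundant of these at 505 and 549 TPM (log2 fold change 0.14, SE 0.074, adjusted p = 0.62), and the group ran from -0.31 for Cldn5 to 0.36 for Marveld2.

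Of 9 cadherin partners, the β-catenin gene Ctnnb1 was the most abundant, at 598 to 631 CPM in controls and 648 to 664 CPM in cKO. The genotypes did not overlap in CPM, but the log2 fold change was 0.11 (SE 0.060, adjusted p = 0.62). In TPM they overlapped, at 325 to 391 TPM in controls and 356 to 395 TPM in cKO. Cdh1, which encodes E-cadherin, was at 5.43, 5.83, 5.31 and 6.48 CPM in controls and at 6.84, 8.54, 9.56 and 9.86 CPM in cKO. In CPM every cKO library was above every control. In TPM the genotypes overlapped, with control 4 at 2.52 TPM and cKO 1 at 2.50 TPM. The means of 2.27 TPM in controls and 3.31 TPM in cKO were far below Cdh2. The fold was 1.51 (log2 0.59, SE 0.18), with an adjusted p of 0.40 that does not pass, while in replicates 2 to 4 edgeR called it (log2 0.67, adjusted p = 0.044). Of 9 L1 family partners 5 were tested, and none had p under 0.05. The ankyrin gene Ank3 was the most abundant at 18.2 and 18.1 TPM (log2 fold change -0.04, SE 0.095), and L1cam was near the filter at 0.47 and 0.688 TPM.

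Within the marker lists, the lowest and highest log2 fold changes were -0.04 for Amh and 0.41 for Trf among Sertoli markers, and -2.05 for Piwil1 and 0.13 for Meiob among spermatocyte markers. They were -0.48 for Id4 and 0.28 for Gfra1 among spermatogonial markers, and -0.44 for Mael and 0.22 for Dazl among the 5 germ cell markers. In the other lists they were -0.31 for Cyp11a1 and 0.21 for Cyp17a1 (Leydig), 0.03 for Des and 0.23 for Cnn1 (peritubular myoid), -0.66 for Tek and -0.06 for Kdr (endothelial), and -0.08 for Adgre1 and 0.59 for Csf1r (macrophage). Of the 52 markers, edgeR called none, although 9 had an unadjusted p under 0.05, beside 8.9% of all genes. DESeq2 called 2, Piwil1 (adjusted p = 0.035) and Id4 (adjusted p = 0.039), beside 1.5% of all genes. The part of these differences in the values of the adhesion genes was not tested.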

How the data were processed

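The authors prepared non-stranded polyA libraries, aligned them with STAR 2.7.9a to GRCm39 (mm39) and quantified genes with RSEM 1.3.3. The deposited expected counts are RSEM estimates per gene, not normalized between samples, and the deposited TPM values are scaled by the authors within each library for length and depth. The authors' own RNA-seq comparisons were not used.

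Expected counts were rounded (15.2% of those above 0 were not whole) and tested with edgeR 4.0.16 (R 4.3.3; TMM, robust quasi-likelihood fit, no covariate, Benjamini-Hochberg adjustment over 20187 genes, threshold 0.05). CPM values are TMM-normalized, log2 fold changes set cKO against control as denominator, and 95% intervals use the fit's SE and degrees of freedom. DESeq2 1.42.0 and limma 3.58.1 served as alternatives, as did other scalings and filters, each library left out in turn, and replicates 2 to 4 alone, chosen because replicate 1 stood apart in earlier results. Depth sets the floor of 3 counts, which covers counting error only. Scripts were tested on simulated data. Positions and motifs came from GENCODE mouse release 39, a later annotation of the same build.

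The members and lists were chosen with earlier results of these data known. Genes named are the 10 members, Mgat2, partners with p under 0.05 and the most abundant partner of each role, the extremes of each marker list and the gene most similar to each member. Slc16a1, Slc16a3, Cadm3, Cadm4, Afdn, Cldn5, Marveld2 and L1cam were added after their values were seen.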

Additional observations from a re-analysis of the deposited data

Results flagged for a closer look

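For the 10 adhesion genes, the 4 libraries of each genotype were examined for a library far from the other 3, in 20 sets of 4 values, of which chance flags about 1 in 20. In 2 sets the gap from the highest library to its nearest neighbour passed Dixon's critical value. For Nectin3 in cKO, replicate 1 at 61.4 CPM was apart by 0.851 of the range of the 4 libraries. For Cdh2 in controls, replicate 1 at 156.1 CPM was apart by 0.902 of the range. Both are replicate 1 libraries, which also held the lowest Sertoli marker sum of their genotype, 7446 TPM in cKO and 7039 TPM in control.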

How the results depend on the processing

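No adhesion gene was called by edgeR, and 1 was by DESeq2 (1 without independent filtering too), with the replicate block (1) and in replicates 2 to 4 alone (1), Nrcam each time. No partner was called, except 2 with the block (Slc16a7, adjusted p = 0.0078, and Cdh1, adjusted p = 0.045) and 1 in replicates 2 to 4 (Cdh1). Of all genes, 8 were called by edgeR, and 302 by DESeq2, 258 without independent filtering, 0 by limma-voom, 0 by limma-trend on log2(TPM + 1), 18 with upper-quartile factors, 17 with library totals, 0 in a fit that was not robust, 35 without a filter, 0 with filterByExpr, 1464 with the block, 855 in replicates 2 to 4 alone, and 0 to 32 with 1 library left out. The cause of these differences was not tested.

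The sample labels state no pairing of mice by replicate number. After subtraction of each genotype mean, libraries with one number correlated at 0.69, 0.29, 0.09 and 0.34. Only 1 control correlated best with the cKO library of its own number. The mean r was 0.35 for the same number and -0.09 for different numbers, and in replicates 2 to 4 it was 0.24 and 0.21. These values cannot decide whether the numbers pair the mice. With the block 8 of 52 markers were called (Trf, Ddx4, Dazl, Mael, Id4, Spo11, Piwil1 and Hspa2), beside 1464 of the 20187 genes tested. Nrcam, the 1 of 10 adhesion genes called with it, had an adjusted p of 0.0016.

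Over 20 settings the direction held for Bsg, Cadm1, Nectin2, Nectin3, Jam3, Cdh2 and Nrcam, and turned at values near 0 for Emb (18 kept), Jam2 (19) and Cxadr (17). Each scaling moved the median of all genes by under 0.1 on the log2 scale. The SE of Nectin3 was 0.43 over all libraries and 0.11 in replicates 2 to 4.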
